A study of Mus musculus with 8 samples.

Results

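The 113 immunoglobulin heavy chain variable (Ighv) genes were followed in the RNA-Seq data of asrij KO LT-HSCs. They were taken as every gene of the GRCm38 annotation with a symbol that starts with Ighv and the biotype IG_V_gene, which gave 113 of the 54749 genes in the count files. All of them lie on the minus strand of chromosome 12, from Ighv5-2 at the proximal end to Ighv1-85 at the distal end (chr12:113578504-116000461). RNA was sequenced from sorted LT-HSCs of bone marrow, with 1 library per mouse, from 4 asrij floxed mice (numbered 1, 3, 4 and 5 in the labels) and 4 asrij KO mice (numbered 2, 3, 4 and 5), all aged 6 months by the sample labels. A library is named here by its genotype and number, such as floxed 3. The KO is a whole-body deletion of asrij (Ociad1), so it is present in every cell type of the mouse, and the floxed controls are homozygous for the floxed allele. The methods name C57BL/6J as the wild type strain and give the sorted cells of this assay as LSK CD150+ CD48+, where LSK stands for Lin- c-Kit+ Sca1+ cells.

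An antibody heavy chain gene is assembled in developing B cells, when the RAG recombinase joins a V, a D and a J segment, and the V segment supplies most of the domain that binds antigen. A cell that has completed this carries 1 productive heavy chain in which 1 V segment is joined, and it is transcribed with the constant gene of the antibody class, at a high level in plasma cells. V segments that have not been joined can also be read at a low level from their own promoters in early lymphoid cells, which is called germline transcription. V segments are grouped by sequence into subfamilies, which give the first number of the gene symbol (Ighv1, Ighv2 and so on), and by distance from the D and J segments into proximal and distal.

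Library totals ranged from 23412829 to 44874882 gene counts. Values are given as CPM, the counts of a gene relative to the size of its library after scaling by the TMM method, which adjusts for differences in composition between libraries. The targeted gene, Ociad1, had 31.3 to 66.9 CPM in floxed and 11.7 to 19.7 CPM in KO libraries, a log2 fold change of -1.58 (adjusted p = 0.0249, edgeR). Of the markers of stem cells, Kit had 46.8 to 60.2 CPM in the 8 libraries, and Procr had at most 0.962 CPM and Fgd5 at most 1.09 CPM. The 11 stem cell markers summed to 122 to 154 CPM, and edgeR called 0 of them. At an unadjusted p under 0.05, 2 were higher, against 9.63% of all genes tested. B cell markers were present in every library, with a sum over 15 markers of 645 to 1106 CPM. Floxed 3 stood apart from the other floxed libraries in the Ighv genes and had the lowest sum of 8 myeloid markers (8193 CPM, against 25027 to 33469 CPM in the other floxed and 14950 to 16554.5 CPM in the KO libraries), so results are given with and without it.

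The last 300 bases of the V exon, the exon that codes for the variable domain, are shown for 3 members that mark the main patterns. The sequences are those of the annotated transcripts (GENCODE, GRCm38) on the minus strand, 5′ to 3′, and capitals mark TGTGCAAGA, the stretch with which many V exons end next to the recombination signal. Ighv1-81 (chr12:115920279-115920578) is a distal gene with the largest fall among the 73 members tested, Ighv9-3 (chr12:114140692-114140991) was close to 0 in KO libraries and floxed 3, and Ighv11-2 (chr12:114048241-114048540) was the member whose difference passed with any library left out.
Ighv1-81: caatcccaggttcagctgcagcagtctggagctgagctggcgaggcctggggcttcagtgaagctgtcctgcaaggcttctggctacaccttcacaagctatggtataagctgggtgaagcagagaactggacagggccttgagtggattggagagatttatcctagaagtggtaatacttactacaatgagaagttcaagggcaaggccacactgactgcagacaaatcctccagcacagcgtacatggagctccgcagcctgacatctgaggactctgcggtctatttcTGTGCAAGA
Ighv9-3: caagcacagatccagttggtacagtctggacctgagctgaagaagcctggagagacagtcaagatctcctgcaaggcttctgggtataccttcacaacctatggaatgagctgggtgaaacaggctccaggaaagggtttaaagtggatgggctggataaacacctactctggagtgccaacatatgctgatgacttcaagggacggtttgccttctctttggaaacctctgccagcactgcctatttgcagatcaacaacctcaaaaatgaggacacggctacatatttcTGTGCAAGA
Ighv11-2: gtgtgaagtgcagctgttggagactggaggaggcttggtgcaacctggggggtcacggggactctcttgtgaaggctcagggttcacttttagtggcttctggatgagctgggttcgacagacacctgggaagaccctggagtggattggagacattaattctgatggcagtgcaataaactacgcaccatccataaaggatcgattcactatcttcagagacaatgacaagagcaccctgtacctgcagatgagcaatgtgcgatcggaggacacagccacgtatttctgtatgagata
In the spliced transcripts, read on their own strand, TGTGCAAGA occurred in 63 of 113 members (55.8%), in 30% of the 70 Ighv pseudogenes, in 0 of 132 transcripts of kappa light chain V genes and in 0.253% of 3562 protein-coding transcripts of 270 to 450 bases. Ighv11-2 does not contain it. In 107 members the transcript has 2 exons, a leader exon and the V exon, and the V exon had a median length of 305 bases.

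The Ighv genes were lower in KO LT-HSCs. Summed over the 113 members, they reached 401, 160, 304 and 346 CPM in floxed 1, 3, 4 and 5 and 78.7, 83.4, 71.2 and 71.5 CPM in KO 2, 3, 4 and 5. All KO libraries were lower than all floxed libraries, and floxed 3 lay between the other floxed and the KO libraries. The floxed libraries averaged 302.6 ± 103 CPM and the KO libraries 76.2 ± 5.94 CPM (SD, n = 4 each), 3.97-fold lower in KO, and without floxed 3 the floxed mean was 350.2 ± 48.9 CPM (SD, n = 3), 4.596 times the KO mean. In bulk RNA, fewer cells of a type and less RNA per cell cannot be told apart. The members took 0.0188% to 0.0439% of the gene counts in floxed and 0.00599% to 0.00869% in KO libraries.

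**Figure D1:**
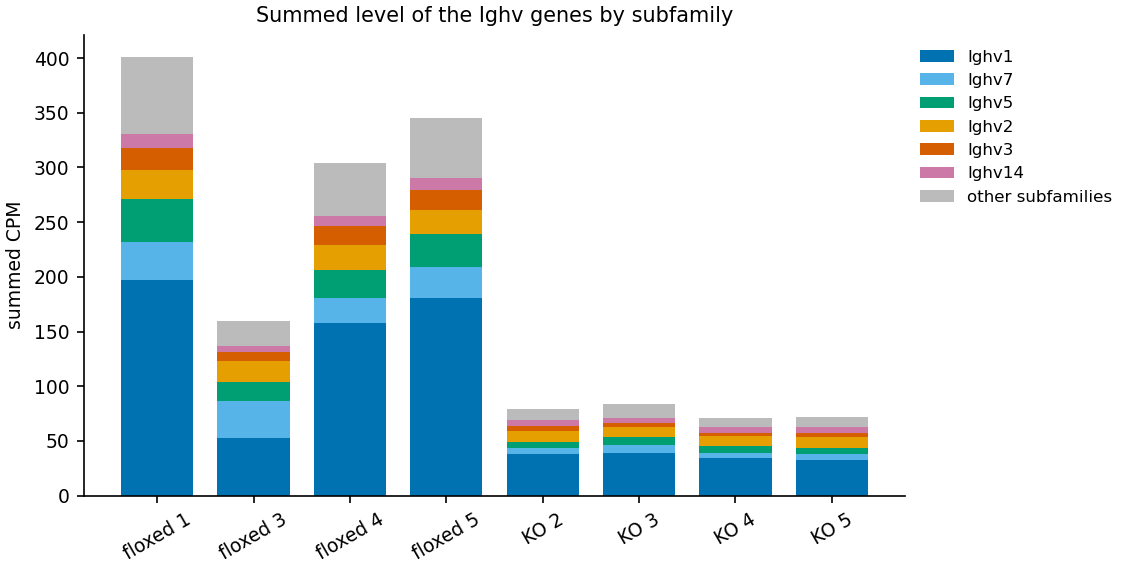
Summed CPM of the Ighv genes in each library (vertical axis, from 0), stacked by subfamily, for 4 floxed and 4 KO libraries. The KO libraries sit between 71.2 and 83.4 CPM, floxed 3 at 160 CPM and the other floxed libraries at 304 CPM or more.

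The fall was spread over many members. Counts were seen for 109 members, and 73 passed the filter on low counts and were tested across all genes with edgeR's quasi-likelihood test. Of these 73, 24 were called lower in KO (adjusted p under 0.05 and a log2 fold change beyond 1.5 in either direction), against 0.74% of all 21902 genes tested, and 0 were called higher, against 0.452%. DESeq2 called 36 of the 73 lower and limma-voom only 4 (1.42% and 0.333% of all genes). DESeq2 and limma-voom also called 0 members higher (0.881% and 0.516% of all genes). In the edgeR fit 50 members were lower and 1 was higher at an unadjusted p under 0.05, against 12.1% and 9.63% of all genes. The log2 fold change was below 0 in 65 of 73 members and in 50.4% of all genes tested. Its median was -1.57 over the members and -0.01 over all genes. The 24 members called had log2 fold changes from -7.04 to -1.63, with adjusted p from 0.00674 to 0.0451. KO values lay below all floxed values in 34 of the 73 members (7.66% of all genes tested) and in 21 of the 24 called.

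The calls depended on which libraries were in the fit. Over all genes tested, floxed and KO libraries numbered 1 to 3 deviated together from their genotype means, as did those numbered 4 and 5. With a block for numbers 4 and 5 (8 libraries), edgeR called 36 of 73 members, all lower, against 1.47% of all genes called lower. With the replicate number as a block (numbers 3, 4 and 5, 6 libraries) 0 of 73 members were called by edgeR, against 0.0833% of all genes called lower and 0.12% called higher. At an unadjusted p under 0.05, 41 members were lower and 0 higher, with no share of all genes at hand for this fit. All 24 called members were still lower in that fit, with adjusted p from 0.0573 to 0.23, and 62 of 73 had a log2 fold change below 0. Without floxed 3, 58 of 89 members tested were called, 55 lower and 3 higher (1.41% and 2.47% of all genes), and the 55 included all 24, with log2 fold changes from -7.43 to -1.73. The 3 higher ones were Ighv2-6-8 (log2 fold change 1.80, adjusted p = 0.0155), Ighv3-4 (2.73, adjusted p = 0.0149) and Ighv1-37 (2.33, adjusted p = 0.0127, all from edgeR). Their groups overlapped only through floxed 3. That library was left out because its Ighv values differed, so the calls without it follow in part from this choice and are not a separate test. Members that reached the limit of the filter on low counts in floxed 1, 4 and 5 alone failed it in the main fit. They could pass it without floxed 3 or without a KO library, so more than 73 members were tested there. With 1 of the other libraries left out, fewer members and fewer genes were called. Without floxed 1, 4 or 5, 1 of 75, 10 of 76 and 5 of 75 members tested were called lower, against 0.0853%, 0.452% and 0.177% of all genes. Without KO 2, 3, 4 or 5, 3 of 90, 4 of 89, 2 of 91 and 1 of 92 were called lower, against 0.107%, 0.152%, 0.0969% and 0.0968% of all genes. Ighv11-2 was the only member called in all 8 of these fits.

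**Figure D2:**
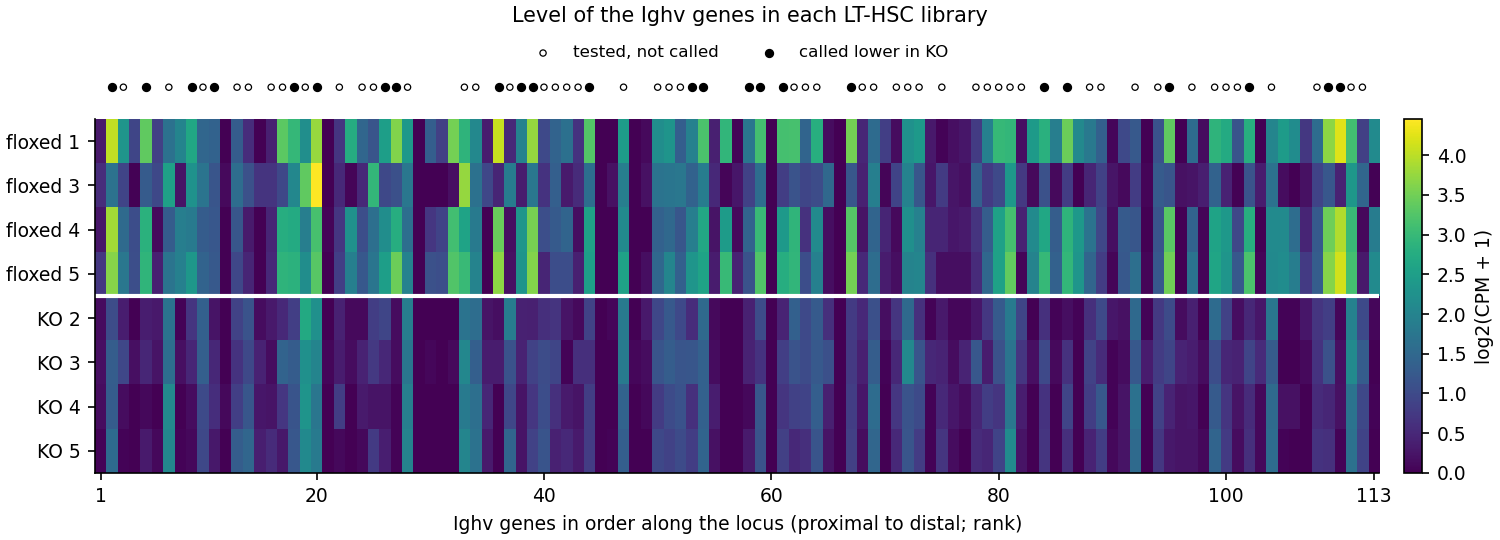
Level of each of the 113 Ighv genes (columns, in order from the proximal to the distal end of the locus) in each of the 8 libraries (rows), as log2(CPM + 1) by colour. Filled circles mark the 24 members called lower in KO and open circles the other tested members, and floxed 3 shows a different set of bright columns from floxed 1, 4 and 5.

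Among the 73 members tested, the largest falls were in members that were near 0 in every KO library. Ighv1-81, of the Ighv1 subfamily that makes up most of the distal genes, had 18.0, 14.2 and 16.9 CPM in floxed 1, 4 and 5, 0.34 CPM in floxed 3 and 0.0513, 0.13, 0.142 and 0.0362 CPM in KO 2, 3, 4 and 5. The groups did not overlap, but floxed 3 was much closer to the KO than to the other floxed libraries. Its log2 fold change was -7.04 ± 1.14 (standard error), with adjusted p = 0.0214 (edgeR), and -7.43 without floxed 3. Per kb of transcript, Ighv1-81 had the highest level of all members in floxed 1, 4 and 5, with 51.2, 40.3 and 48.0 CPM per kb.

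Ighv11-2, of a small subfamily known for its use by B-1 cells, had 11.2, 1.13, 5.87 and 10.002 CPM in floxed 1, 3, 4 and 5 and 0.103, 0.104, 0.0355 and 0.0362 CPM in the KO libraries. The groups did not overlap. The log2 fold change was -6.51 ± 0.80 (SE, adjusted p = 0.00674, edgeR), with adjusted p of at most 0.0401 when any library was left out, and 0.0627 with the block. Ighv11-1, whose V exon is 98.7% identical, changed by -2.43 on the log2 scale and was not called.

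Ighv7-4 had 15.9, 9.82 and 11.96 CPM in floxed 1, 4 and 5, 0.378 CPM in floxed 3 and 0.128, 0.26, 0 and 0 CPM in the KO libraries. It was high in 3 libraries alone and close to 0 in the other 5. The log2 fold change was -6.42 ± 1.19 (SE, adjusted p = 0.0302, edgeR). Other members of its subfamily behaved in another way in floxed 3.

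Ighv7-1 had 12.7, 20.9, 7.95 and 8.81 CPM in floxed 1, 3, 4 and 5 and 3.72, 3.02, 2.34 and 2.57 CPM in the KO libraries. Floxed 3 was the highest library, and the groups did not overlap. Its log2 fold change was -2.11 ± 0.33 (SE, adjusted p = 0.0206, edgeR). Ighv7-3 was also highest in floxed 3, with 12.4 CPM in floxed 3, 4.97 to 7.13 CPM in the other floxed and 2.26 to 3.20 CPM in the KO libraries. It had an adjusted p of 0.0364 (edgeR) with a log2 fold change of -1.48, just short of the limit of 1.5.

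The other called members with the largest falls were Ighv5-6, Ighv5-12, Ighv3-6, Ighv1-80, Ighv8-8, Ighv1-64 and Ighv1-26. Ighv5-6 had a mean of 5.86 ± 3.26 CPM in floxed and 0.249 ± 0.133 CPM in the KO libraries (SD, n = 4 each), and its log2 fold change was -4.50 (adjusted p = 0.0143, edgeR). Ighv5-12 differed from the rest in that floxed 3 was within the range of the other floxed libraries, with 5.27, 3.82, 2.55 and 4.14 CPM against 0.0725 to 0.615 CPM in KO. Its log2 fold change was -3.67 (adjusted p = 0.0211, edgeR). In the remaining members of this set, floxed 3 had between 0.738 CPM (Ighv8-8) and 2.402 CPM (Ighv3-6), where the other floxed libraries had at least 6.17 CPM. Ighv8-8 was the member of this set whose groups overlapped, with 0.887 CPM in KO 4.

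Among the 24, Ighv2-2 (15.3, 2.19, 13.3 and 11.5 CPM in floxed and 1.05 to 1.96 CPM in KO) and Ighv5-17 (6.83, 3.16, 5.61 and 6.29 CPM in floxed and 0.769 to 1.46 CPM in KO) had smaller changes, of -2.83 and -2.19 on the log2 scale. Both lie near the proximal end. Ighv10-3, the better expressed of the Ighv10 genes by CPM, fell by 1.87 on the log2 scale (adjusted p = 0.0451, edgeR).

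Other members had smaller differences that were not called. Ighv2-9 had 3.59, 9.29, 2.76 and 3.53 CPM in floxed and 5.51, 3.69, 3.97 and 3.33 CPM in the KO libraries, with the KO values inside the floxed range. Its log2 fold change was -0.22 ± 0.39 (SE, adjusted p = 0.787, edgeR) and 0.34 without floxed 3. Per kb, Ighv2-9 was the highest member in KO 2, 3 and 4 and the second in KO 5. Ighv14-3 had 2.04 to 4.19 CPM in floxed and 2.31 to 2.97 CPM in KO libraries (log2 fold change -0.10, adjusted p = 0.866, edgeR). Ighv12-3, the sole member of its subfamily, had at most 0.58 CPM in any library and a log2 fold change of -0.53 (adjusted p = 0.685, edgeR). Ighv6-6 was lower in every KO library than in every floxed one, at 1.52 to 2.52 against 2.74 to 4.83 CPM, but with a log2 fold change of -0.89 it did not pass (adjusted p = 0.116, edgeR). Ighv1-53 and Ighv1-82 had adjusted p of 0.0349 and 0.0389 (edgeR) with log2 fold changes of -1.39 and -1.30, which are inside the limit of 1.5.

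The largest positive values were in 3 members with low levels. Ighv2-6-8 had 0.475, 1.15, 0.255 and 0.383 CPM in floxed and 1.204, 0.962, 1.28 and 1.78 CPM in the KO libraries (log2 fold change 1.16, adjusted p = 0.203, edgeR). Ighv3-4 had 0.422, 2.65, 0.128 and 0.153 CPM in floxed and 0.922 to 2.64 CPM in the KO libraries (log2 fold change 0.89, adjusted p = 0.591, edgeR). Ighv1-37 had 0.085 to 0.115 CPM in floxed 1, 4 and 5, 0.87 CPM in floxed 3 and 0.416 to 0.639 CPM in the KO libraries (log2 fold change 0.74, adjusted p = 0.607, edgeR). In each of them floxed 3 was the highest floxed library, and the groups overlapped only through it.

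The profile of the members in floxed 3 was more like that of the KO libraries than that of the other floxed libraries. Across the 113 members, the correlation (Pearson's r of log2(CPM + 1), a description across genes) was 0.972 to 0.983 between floxed 1, 4 and 5 and 0.862 to 0.951 between KO libraries. Floxed 3 had r of 0.778 to 0.843 with the KO libraries and 0.412 to 0.43 with the other floxed libraries, close to the 0.359 to 0.412 between floxed 1, 4 and 5 and the KO libraries. These points share libraries and members with related sequence, so they are not independent. Floxed 3 was below the other 3 floxed libraries in 62 members, above them in 30 and among them in 21. Against the KO libraries it was above in 58, within their range in 49 and below in 6.

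**Figure D3:**
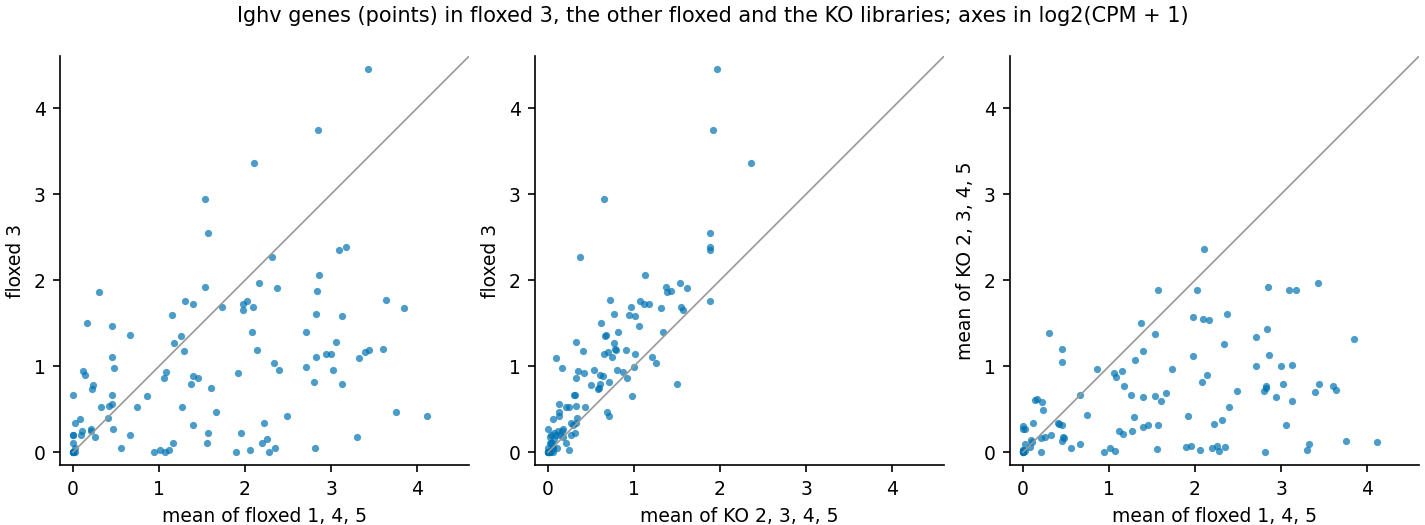
Each point is 1 of the 113 Ighv genes, with axes in log2(CPM + 1) and the diagonal marking equal levels. Floxed 3 lies in a band along the KO mean, mostly above the diagonal, and is scattered against the mean of floxed 1, 4 and 5, as the KO mean is.

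In 10 members, each with at least 1 CPM in floxed 1, 4 and 5, the level was under 0.25 CPM in floxed 3 and in all 4 KO libraries, limits that were chosen after the values were seen. They are Ighv2-5, Ighv4-1, Ighv9-3, Ighv1-9, Ighv1-54, Ighv1-56, Ighv1-58, Ighv1-75, Ighv1-76 and Ighv1-85. Together they reached 47.6, 35.7 and 39.3 CPM in floxed 1, 4 and 5, 0.662 CPM in floxed 3 and 0.0725 to 0.52 CPM in the KO libraries. None of the 10 passed the filter on low counts, so the 24 calls do not include them.

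Ighv9-3 had 10.4, 7.61 and 8.51 CPM in floxed 1, 4 and 5, 0.132 CPM in floxed 3, 0.078 CPM in KO 3 and 0 in the other KO libraries. Ighv4-1, the sole member of its subfamily, had 5.75, 3.74 and 2.80 CPM in floxed 1, 4 and 5, 0.0378 CPM in floxed 3 and at most 0.104 CPM in the KO libraries. Ighv1-9 was at 0 in all 4 KO libraries and had 6.62, 0.0378, 4.42 and 6.97 CPM in floxed 1, 3, 4 and 5, at least 171-fold higher in floxed over a floor of 3 counts in the KO libraries together. Ighv1-58 had 3.30, 4.21 and 4.02 CPM in floxed 1, 4 and 5, 0 in floxed 3 and 0.0256 CPM in KO 2 alone. Without the filter on low counts, Ighv9-3, Ighv4-1, Ighv1-9, Ighv1-58 and Ighv1-85 had adjusted p of 0.0037, 0.016, 0.0102, 0.0101 and 0.0126 (edgeR), and 40 of 109 members were called, all lower (0.547% of all genes).

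In 4 members, Ighv2-7, Ighv1-23, Ighv1-37 and Ighv8-13, the level was under 0.25 CPM in floxed 1, 4 and 5 and at or above it in floxed 3 and at least 1 KO library, a looser rule that was also chosen after the values were seen. In Ighv1-37 alone was it reached in all 4 KO libraries, and Ighv8-13, for example, had 0.071 and 0.0725 CPM in KO 4 and 5. They summed to 0.211, 0.213 and 0.268 CPM in floxed 1, 4 and 5, to 3.56 CPM in floxed 3 and to 0.978 to 2.34 CPM in the KO libraries.

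Some members of almost the same sequence differed in these patterns. Among pairs of members with V exons at least 95% identical, 35 had both members tested, and 3 of these had both called, 19 had 1 called and 13 had neither. The absolute difference in log2 fold change within these pairs had a median of 1.63, against 1.42 between tested neighbours along the locus. Pairs of lower identity were not counted, and 24 of all 73 tested members were called. The counts therefore do not show whether close relatives differ more or less than other members. The last 300 bases of the V exons of 4 pairs are printed with the bases that differ in capitals, pairs chosen after their values were seen because their members differ in these patterns. The way in which reads that fit more than 1 member were placed is not given in the sources used here, and 92.5% of the 50-base stretches of the Ighv1-72 transcript occur in another gene, against 11.6% for Ighv1-81.

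Ighv1-85 (chr12:116000028-116000327), the most distal member, and Ighv1-84 (chr12:115980702-115981001), beside it, differ at 20 of 305 bases. Ighv1-85 had 3.402, 2.68 and 3.37 CPM in floxed 1, 4 and 5 and at most 0.0513 CPM in floxed 3 and the KO libraries. Ighv1-84 had 0.791, 0.085 and 0.23 CPM in floxed 1, 4 and 5, 1.76 CPM in floxed 3 and 0.87 to 1.48 CPM in the KO libraries. The libraries that were high for the first were low for the second.
Ighv1-85: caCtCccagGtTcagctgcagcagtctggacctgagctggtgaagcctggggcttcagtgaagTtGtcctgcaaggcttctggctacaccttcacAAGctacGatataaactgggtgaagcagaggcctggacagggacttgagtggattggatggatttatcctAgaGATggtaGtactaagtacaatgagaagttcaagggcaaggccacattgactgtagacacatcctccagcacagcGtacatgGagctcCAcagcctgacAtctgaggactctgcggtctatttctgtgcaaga
Ighv1-84: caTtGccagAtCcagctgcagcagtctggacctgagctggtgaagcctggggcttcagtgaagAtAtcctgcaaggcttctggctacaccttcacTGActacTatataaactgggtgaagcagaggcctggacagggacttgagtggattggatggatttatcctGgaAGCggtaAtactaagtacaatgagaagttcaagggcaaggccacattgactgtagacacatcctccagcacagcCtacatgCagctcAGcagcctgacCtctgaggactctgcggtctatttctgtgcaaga

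Ighv1-15 (chr12:114657353-114657652) and Ighv1-23 (chr12:114764450-114764749) differ at 5 of 305 bases. Counted from 1 at the first base printed, with the base of Ighv1-15 first, these are C62A, G114T, T135C, G172T and T212C. Ighv1-15 had 7.70, 2.005, 7.10 and 8.51 CPM in floxed 1, 3, 4 and 5 and 0.572 to 1.28 CPM in KO libraries, and was called (log2 fold change -2.63, adjusted p = 0.0266, edgeR). Ighv1-23 had 0.105 to 0.128 CPM in floxed 1, 4 and 5, 1.83 CPM in floxed 3 and 0.181 to 1.12 CPM in KO libraries, and was not tested.
Ighv1-15: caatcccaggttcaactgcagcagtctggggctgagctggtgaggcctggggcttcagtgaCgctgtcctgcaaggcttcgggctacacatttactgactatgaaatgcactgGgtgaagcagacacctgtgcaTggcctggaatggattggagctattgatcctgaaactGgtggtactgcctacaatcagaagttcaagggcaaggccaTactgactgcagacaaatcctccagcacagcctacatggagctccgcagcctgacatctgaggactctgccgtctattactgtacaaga
Ighv1-23: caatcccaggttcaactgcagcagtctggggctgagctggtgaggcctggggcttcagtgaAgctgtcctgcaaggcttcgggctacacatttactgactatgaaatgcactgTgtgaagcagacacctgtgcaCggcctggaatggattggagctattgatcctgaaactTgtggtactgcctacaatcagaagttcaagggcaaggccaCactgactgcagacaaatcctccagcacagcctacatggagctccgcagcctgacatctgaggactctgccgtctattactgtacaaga

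Ighv1-72 (chr12:115757984-115758283) and Ighv1-62-3 (chr12:115460999-115461298) differ at 3 of 305 bases (C5T, T70A and T291C, with the base of Ighv1-72 first). Ighv1-72 had 5.93, 1.21, 5.95 and 8.16 CPM in floxed and 0.41 to 0.884 CPM in KO libraries, a log2 fold change of -3.21 ± 0.56 (SE, adjusted p = 0.0261, edgeR). Ighv1-62-3 had 1.37, 0.738, 1.28 and 2.11 CPM in floxed and 1.35 to 2.16 CPM in KO libraries, a log2 fold change of 0.42 ± 0.36 (SE, adjusted p = 0.543, edgeR).
Ighv1-72: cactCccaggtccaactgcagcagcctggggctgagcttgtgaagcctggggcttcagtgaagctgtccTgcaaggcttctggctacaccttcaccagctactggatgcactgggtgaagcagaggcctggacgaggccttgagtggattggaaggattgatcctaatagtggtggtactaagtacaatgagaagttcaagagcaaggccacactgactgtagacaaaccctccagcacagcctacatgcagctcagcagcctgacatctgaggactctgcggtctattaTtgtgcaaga
Ighv1-62-3: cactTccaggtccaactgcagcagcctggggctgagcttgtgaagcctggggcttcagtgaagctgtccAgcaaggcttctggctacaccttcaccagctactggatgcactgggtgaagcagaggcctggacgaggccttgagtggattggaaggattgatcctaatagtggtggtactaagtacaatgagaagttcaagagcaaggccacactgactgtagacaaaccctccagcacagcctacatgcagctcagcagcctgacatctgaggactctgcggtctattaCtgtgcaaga

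Ighv14-2 (chr12:113994469-113994768) and Ighv14-1 (chr12:113931953-113932252) differ at 9 of 305 bases. Ighv14-2 had 4.61, 0.946, 3.53 and 4.68 CPM in floxed and 0.177 to 0.897 CPM in KO libraries (log2 fold change -2.91, adjusted p = 0.0411, edgeR). Ighv14-1 had 0.435 to 0.766 CPM in floxed and 0.0725 to 0.745 CPM in KO libraries (log2 fold change -0.78, adjusted p = 0.482, edgeR), and its groups overlapped.
Ighv14-2: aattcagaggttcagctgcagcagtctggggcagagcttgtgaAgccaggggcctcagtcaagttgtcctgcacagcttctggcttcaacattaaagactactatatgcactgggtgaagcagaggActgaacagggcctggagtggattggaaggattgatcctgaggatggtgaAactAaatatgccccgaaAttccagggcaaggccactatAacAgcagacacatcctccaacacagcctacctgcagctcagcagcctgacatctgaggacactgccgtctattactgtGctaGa
Ighv14-1: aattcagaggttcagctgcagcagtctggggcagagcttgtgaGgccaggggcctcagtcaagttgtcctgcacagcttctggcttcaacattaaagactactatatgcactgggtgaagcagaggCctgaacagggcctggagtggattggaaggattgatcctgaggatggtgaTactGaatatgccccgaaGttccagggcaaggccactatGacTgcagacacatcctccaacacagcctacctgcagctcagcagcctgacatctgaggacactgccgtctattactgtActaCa

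**Figure D4:**
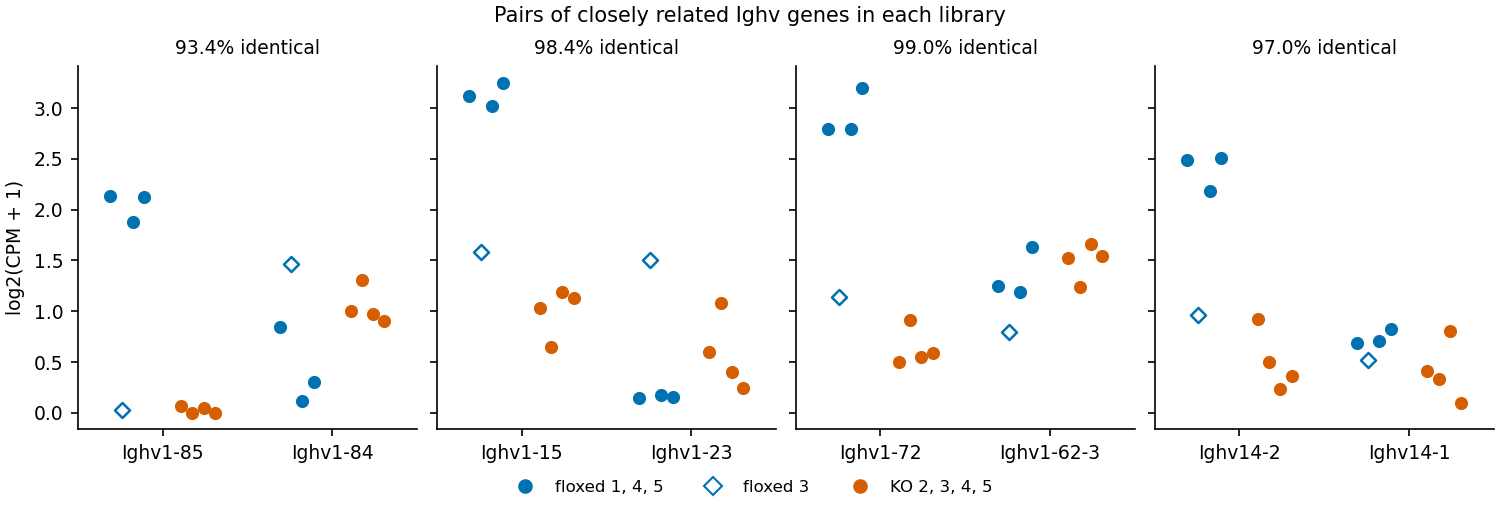
Level of 4 pairs of closely related Ighv genes in each library, as log2(CPM + 1) on the vertical axis. Blue circles are floxed 1, 4 and 5, the open diamond is floxed 3 and orange circles are the KO libraries, and in Ighv1-85 and Ighv1-15 the 3 blue circles lie above all other libraries while in Ighv1-84 and Ighv1-23 they lie low.

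By subfamily, the mean of the summed level was lower in KO in each of the 15 subfamilies with a count. The floxed and KO libraries overlapped in Ighv4, Ighv8, Ighv9, Ighv12, Ighv13, Ighv14 and Ighv15. In Ighv14, for example, floxed 3 had 5.92 CPM and the KO libraries 4.55 to 5.97 CPM. The 53 Ighv1 genes summed to 197, 53.0, 158 and 181 CPM in floxed and 32.2 to 39.4 CPM in the KO libraries, a log2 ratio of the means of -2.04. Of the 35 tested members of Ighv1, 10 were called lower, against 0.74% of all genes tested. The 10 Ighv5 genes gave a log2 ratio of -2.18 with 4 of 8 called, the 6 Ighv3 genes -2.14 with 2 of 5 called and the 4 Ighv7 genes -2.36 with 2 of 3 called. Without floxed 3 these 4 ratios were -2.32, -2.35, -2.35 and -2.30. In Ighv7 floxed 3 was not low, with 33.8 CPM against 22.8 to 35.0 CPM in the other floxed libraries. The smallest ratios among subfamilies with over 1 member were in Ighv14 (-0.83) and Ighv2 (-1.26). Ighv9 and Ighv11 had larger ratios, of -3.17 and -3.98. In Ighv11, 1 of 2 tested members was called. In Ighv9, 1 of 4 members was tested and 0 called, and this member, Ighv9-4, had a log2 fold change of 0.34. Its other members, such as Ighv9-3, were not tested. In Ighv9 floxed 3 had 0.6998 CPM against 10.2 to 13.7 CPM in the other floxed libraries. In Ighv11 it had 7.85 CPM against 7.95 to 12.4 CPM, a sum of 2 members that differed there. Ighv11-2 was lower in floxed 3, at 1.13 CPM against 5.87 to 11.2 CPM, and Ighv11-1 was higher, at 6.71 CPM against 1.27 to 2.34 CPM, with 0.177 to 0.743 CPM in the KO libraries. Among the subfamilies of 1 member, Ighv13-2 had 2.11, 0.246, 1.70 and 1.07 CPM in floxed and 0.026 to 0.435 CPM in the KO libraries (log2 fold change -2.54, adjusted p = 0.104, edgeR). Ighv15-2 stayed at or under 0.435 CPM in every library, and Ighv16-1, Ighv6-4, Ighv1-16 and Ighv1-24 had no count.

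Called members occurred in all sections of the locus. The 38 most proximal members had a log2 ratio of summed CPM of -1.96 with 10 of 25 called, the 38 in the middle -1.81 with 8 of 25 called and the 37 most distal -2.19 with 6 of 23 called. Without floxed 3 these ratios were -2.07, -2.03 and -2.50. Over all genes tested, 0.74% were called lower. Spearman's rho of the log2 fold change with position was 0.04 over the 73 tested members, a description across genes. Floxed 3 differed from the other floxed libraries more at the distal than at the proximal end, by log2 ratios of -2.08 for the distal, -1.22 for the middle and -0.52 for the proximal members. This gradient was described from 1 library and has no test. Ighv5-2, the most proximal member, was under 0.66 CPM in every library and was not tested.

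**Figure D5:**
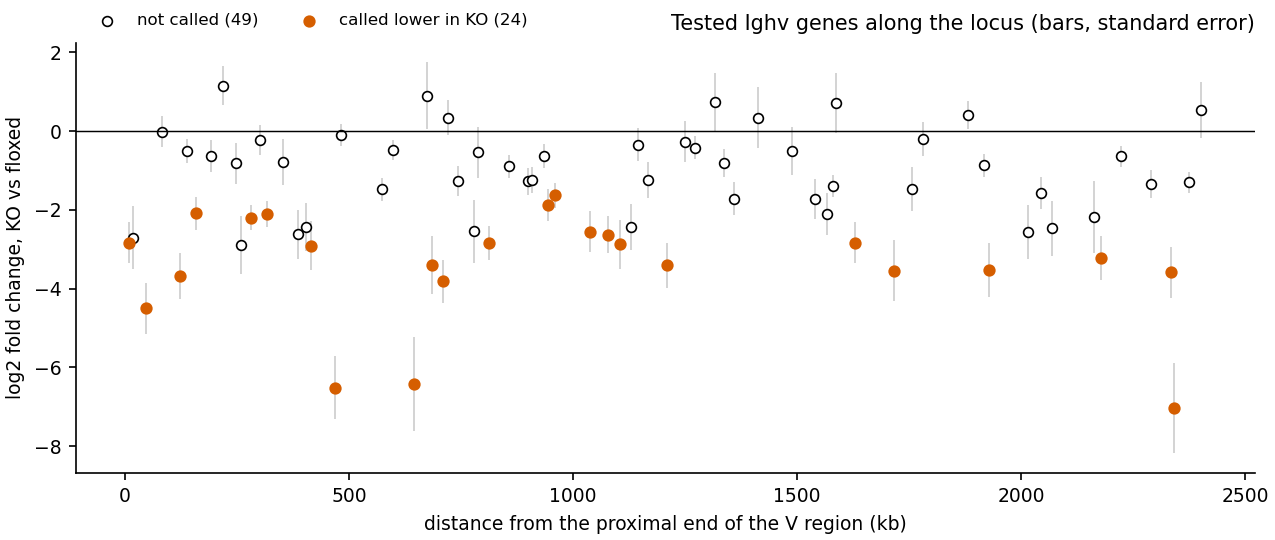
Log2 fold change (KO against floxed) of the 73 tested Ighv genes on the vertical axis against the distance in kb from the proximal end of the V region, with standard errors as bars. Called members (filled, 24) occur along the whole 2422 kb, and 65 of 73 points lie below 0.

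The Ighv pseudogenes, 70 segments in the same stretch of chromosome 12 that cannot code for a functional V domain, went both ways. Summed over all of them, the level was 8.07, 16.8, 3.997 and 6.09 CPM in floxed 1, 3, 4 and 5 and 15.8 to 18.6 CPM in KO libraries. Floxed 3 lay in the range of the KO libraries and the other floxed libraries below it. Just 5 pseudogenes passed the filter, 0 were called in either direction by edgeR, and all 5 had a log2 fold change above 0. At an unadjusted p under 0.05, 2 were higher, against 9.63% of all genes tested. Pseudogenes high in floxed 3 and the KO libraries could pass this filter, and those that reached its limit in floxed 1, 4 and 5 alone could not. The shared direction of the 5 therefore follows in part from the filter. These 5 summed to 1.06 to 1.08 CPM in floxed 1, 4 and 5, 13.8 CPM in floxed 3 and 14.1 to 16.6 CPM in KO libraries. The 65 that were not tested summed to 2.93 to 6.99 CPM in floxed and 1.31 to 2.21 CPM in KO libraries. Among them, named after their values were seen, Ighv1-41 had 3.59, 0.208, 1.57 and 2.22 CPM in floxed and at most 0.208 CPM in KO libraries, and Ighv8-10 had 1.48, 0, 0.638 and 1.53 CPM in floxed and at most 0.0362 CPM in KO libraries. Ighv1-62 had 0.817, 6.49, 0.68 and 0.498 CPM in floxed and 5.97 to 7.39 CPM in KO libraries (log2 fold change 1.67, adjusted p = 0.222, edgeR). Of the 42 other genes inside the span, 7 were tested and 0 called by edgeR, while 2 were lower and 1 was higher at an unadjusted p under 0.05. Gm9260 had 15.9 to 44.0 CPM in floxed and 55.6 to 81.8 CPM in KO libraries (log2 fold change 1.33, adjusted p = 0.0478, edgeR).

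The constant genes, to which the joined V segment is spliced, differed by class. Of 7 tested, 4 were called lower (0.74% of all genes tested). They are Ighg1, Ighg2b, Ighg2c and Ighg3, which code for the IgG heavy chains, with log2 fold changes of -5.24, -2.76, -3.85 and -2.13. Ighg1 had 231, 333 and 333 CPM in floxed 1, 4 and 5, 3.88 CPM in floxed 3 and 5.002 to 7.75 CPM in KO libraries, so that floxed 3 was again on the side of the KO libraries. Ighm, the constant gene of IgM, did not pass the test, with 656 to 980 CPM in floxed and 582 to 749 CPM in KO libraries (log2 fold change -0.30, adjusted p = 0.433, edgeR). Ighd, that of IgD, had a positive log2 fold change of 0.69 (adjusted p = 0.0283, edgeR), inside the limit of 1.5. Igha, that of IgA, had 442, 110, 702 and 756 CPM in floxed 1, 3, 4 and 5 and 102 to 158 CPM in KO libraries. It was not called (log2 fold change -1.91, adjusted p = 0.0653, edgeR). Ighe, that of IgE, was not tested and had 1.48, 0, 1.19 and 1.26 CPM in floxed and at most 0.104 CPM in KO libraries. Of the 4 J genes 0 were called by edgeR, with 0 at an unadjusted p under 0.05, and of the 19 D genes none was tested.

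Among the kappa light chain V genes, 35 of 71 tested were called lower and 0 higher (0.74% and 0.452% of all genes tested). They summed to 150 CPM in floxed 3, 409 to 429 CPM in the other floxed and 68.6 to 87.9 CPM in KO libraries. Jchain, which links IgM and IgA into polymers in plasma cells, was called lower (log2 fold change -1.66, adjusted p = 0.0239, edgeR). Of 10 plasma cell markers 0 were called by edgeR, and they summed to 208 to 253 CPM in floxed and 166 to 178 CPM in KO libraries. At an unadjusted p under 0.05, 3 were lower and 1 higher, against 12.1% and 9.63% of all genes tested. Of these 10 markers, 7 had a log2 fold change below 0 and 3 above, such as Mzb1 (0.45, adjusted p = 0.163, edgeR). Prdm1, the transcription factor of plasma cells, had a log2 fold change of -1.20 (adjusted p = 0.0383, edgeR). In floxed 3, Xbp1 had 67.5 CPM, below the 85.5 to 98.7 CPM of the KO libraries. Irf4 had 67.8 CPM in floxed 3, above the 30.3 to 31.9 CPM of the KO libraries. The part of plasma cells in the lower Ighv level was not tested.

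No marker of B cells or their precursors was called lower. Of 15 B cell markers 0 were called by edgeR, and 4 were higher at an unadjusted p under 0.05. At that unadjusted p, 9.63% of all genes tested were higher and 12.1% lower. Of the 15 markers, 14 had a log2 fold change above 0, with sums of 645 to 1025 CPM in floxed and 975 to 1106 CPM in KO libraries. Of 10 genes of pre-B cells and recombination, 2 were called higher (0.452% of all genes tested). They are Vpreb1 and Vpreb2, which form the surrogate light chain of pre-B cells, at 1.66 and 1.84 on the log2 scale. Of the 10, 8 had a log2 fold change above 0 and 6 were higher at an unadjusted p under 0.05 (edgeR, 9.63% of all genes tested). In 6 of the 10 every KO library was above every floxed library, against 7.1% of all genes tested. Rag1, which cuts at the recombination signals, was among the 2 with a log2 fold change below 0. It had 89.3 CPM in floxed 3, 24.3 to 33.6 CPM in the other floxed and 29.9 to 37.7 CPM in KO libraries. Of 13 regulators of the heavy chain locus, such as Ctcf, Yy1 and Pax5, 0 were called by edgeR and 1 was lower at an unadjusted p under 0.05. Of 5 NK cell markers Ncr1 was called lower by edgeR (0.74% of all genes tested), and 4 were lower at an unadjusted p under 0.05 (12.1%). Of 7 T cell markers 0 were called by edgeR (2 were lower and 1 higher at an unadjusted p under 0.05). Erythroid markers also moved with genotype. Of 8 erythroid markers 3 were called higher (0.452% of all genes tested), at sums of 26661 to 66783 CPM in floxed and 119341 to 291956 CPM in KO libraries. Their part in the CPM of the Ighv genes was not tested beyond leaving the haemoglobin genes out, which kept the count at 24.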

How the data were processed

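LT-HSC RNA-Seq libraries of 4 asrij floxed and 4 asrij KO mice were analysed. The submitters' processing notes name FastQC, Trim Galore, Bowtie2 and the build GRCm38/mm10, and the authors deposited whole-number, unnormalized counts for 138930 Ensembl transcripts per library. Of the 8 deposited files, 7 use tabs although named as comma-separated, so an automatic check could not read them and their counts carry the unit "other" there. The counting tool, the use of strand and the treatment of reads that fit several genes are not given in the sources used here. GENCODE M21 gave the gene of each transcript (138789 matched). The gene count was that of the transcript with the most counts over the 8 libraries.

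In edgeR 4.0.16 (R 4.3.3), filterByExpr by genotype left 21902 genes, which were scaled by TMM and compared by the quasi-likelihood test (glmQLFit, glmQLFTest, Benjamini-Hochberg adjustment over all 21902). A gene was called at an adjusted p under 0.05 and a log2 fold change beyond 1.5 in either direction. The standard error is the log2 fold change divided by the square root of the F statistic. For the members tested its median was 0.53, and the counts behind it are those of 23412829 to 44874882 gene counts per library. Alternatives were DESeq2 1.42.0, limma-voom (limma 3.58.1), other scalings and filters, sums over transcripts, blocks and leaving out each library, and the fits were tested on simulated data first. Floors of 3 counts cover counting error only. Python 3.11.15 with pandas 2.3.3 was used elsewhere.

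Members and lists were chosen with earlier results of these data known. The genes named are, by rule, the member with the highest mean CPM in each subfamily, the 10 highest members, the 10 called members with the largest fall, the 3 largest positive values, the first and last member along the locus and up to 6 members with 1 library apart. Pairs and pattern lists were added after their values were seen. The numbers 3, 4 and 5 in the labels occur in both genotypes and belong to different mice. Same-numbered libraries correlated in their deviations from the genotype means (r = 0.427, 0.454 and 0.707 across genes), each above the limit of 0.1 at which the block is treated as a pairing. They did not stand apart from other pairs, since r was 0.359 to 0.620 for any floxed and KO library among numbers 1 to 3, 0.446 to 0.711 among numbers 4 and 5 and -0.726 to -0.38 between these sets.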

Additional observations from a re-analysis of the deposited data

Results flagged for a closer look

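Of 104 groups of 4 libraries checked for 1 library far from the other 3 (log2(CPM + 1) of the named members and of the summed subfamilies and sections of the locus), 18 had one by Dixon's rule. Chance gives about 5% of independent groups, but up to 6 of these members were named because 1 library lay apart and the sums hold the same members, so the 18 cannot be read against that share. In 15 of the 18 the library was floxed 3.

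Floxed 3 was below the other floxed libraries in Ighv2-2 (1.68 against 3.64 to 4.03), Ighv9-3 (0.18 against 3.11 to 3.52), Ighv3-6 (1.77 against 3.53 to 3.74), Ighv1-26 (1.19 against 3.29 to 3.52) and Ighv1-58 (0 against 2.10 to 2.38). The same was seen in Ighv1-64 (1.17 against 3.31 to 3.49), Ighv1-80 (1.205 against 3.46 to 3.69), Ighv1-81 (0.42 against 3.92 to 4.24), Ighv1-82 (2.35 against 3.03 to 3.13) and Ighv1-85 (0.027 against 1.88 to 2.14). It was above them in Ighv1-37 (0.90 against 0.12 to 0.16).

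The summed Ighv1 genes (5.75 against 7.32 to 7.63), Ighv3 genes (3.21 against 4.19 to 4.36), Ighv9 genes (0.77 against 3.49 to 3.88) and the 37 most distal members (4.96 against 6.86 to 7.11) gave low values of floxed 3 too. The remaining 3 groups were KO libraries at levels close to 0. They are Ighv9-3 in KO 3 (0.11 against 0 in the others), Ighv1-58 in KO 2 (0.0365 against 0 in the others) and the summed Ighv11 genes in KO 4 (0.28 against 0.79 to 0.88).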

How the results depend on the processing

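The log2 ratio of summed Ighv CPM stayed below 0 in every alternative run. The count of 24 members called became 4 with limma-voom (Ighv5-12, Ighv5-17, Ighv5-9-1 and Ighv7-1), 40 without the filter on low counts, 0 with the replicate number as a block, 36 with a block for numbers 4 and 5, and 1 to 58 when leaving out each library, the highest without floxed 3 and the lowest without floxed 1 or KO 5. With the block the number of libraries falls to 6. The count without floxed 3 follows in part from the choice of that library, which was made on its Ighv values. The cause of the other changes was not tested. DESeq2 gave 36 members, and other scalings, the CPM filter and the sum over transcripts 18 to 31. Without scaling the median of all genes moved to -0.20 and that of the members to -1.75. Over all genes the count of 261 became 503 with DESeq2, 44 with the replicate number as a block, 521 with a block for numbers 4 and 5, 651 with the adjusted p alone and 51 to 857 with each library left out. Of the named members, those with a change of sign were Ighv12-3 (0.13) and Ighv14-3 (0.15) with the block, Ighv14-3 (0.16) without floxed 1 and Ighv2-9 (0.34) without floxed 3, none of them called. With each library left out, Ighv14-3 ranged from -0.23 to 0.16 and Ighv2-9 from -0.41 to 0.34. Members with few counts limit the precision, and 36 with a count were not tested.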
